A study of Saccharomyces cerevisiae with 4 samples.

Results

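The genes described here lie at the ends of the chromosome arms of baker's yeast, Saccharomyces cerevisiae. The systematic name of a yeast reading frame gives its chromosome, its arm and a number that rises from the centromere towards the telomere, the chromosome end. For each of the 32 arms, every reading frame that carried one of the 5 highest numbers of that arm in the count files was taken, and 2 genes were left out. The choice used names and no measured value. It gave 200 genes of the 6675 reading frames that follow this naming pattern, against 6473 other reading frames. Of the 200, 45 had no read in any library, 35 had 1 to 9 reads over all libraries and 120 had at least 10. The annotation of the R64 assembly held 140 of the 200, at 0.052 to 16.951 kb from the chromosome end, and 60 had no entry in it.

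The strains were BY4741, a haploid laboratory strain of the S288C background (MATa, with the alleles his3-1, leu2-0, met15-0 and ura3-0), and the same strain with TOR1 replaced by a drug resistance cassette (YJR066w::kanMX4). The product of TOR1 is a Target of Rapamycin kinase and couples nutrient supply to growth. Both strains grew at 30°C with shaking in minimal glucose medium with ammonium sulfate, histidine, leucine, methionine and uracil, and were harvested in logarithmic growth. The sample titles give 4 h, and the deletion is represented by what the labels describe as a single strain. Ion Torrent sequencing of poly(A) RNA gave 2 libraries per strain, and the comparison of the strains addresses how the loss of TOR1 changes gene expression. Whether the replicate libraries stem from separate cultures is not stated in the labels, and the p-values therefore rest on a spread between libraries that may be technical.

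The libraries held 8060480 to 14446057 assigned reads. TOR1 had 635 and 357 reads in wild-type libraries 1 and 2, and 0 and 1 in deletion libraries 1 and 2. STE2, the pheromone receptor gene of MATa cells, averaged 1433 CPM (TMM-normalised counts scaled to library size) in wild-type and 1166 CPM in deletion libraries, and STE3, its MATalpha counterpart, averaged 9.69 and 3.46 CPM. Across genes, log2 CPM of the replicates correlated at 0.992 for wild type and 0.974 for deletion.

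Subtelomeres are patchworks of gene families that are shared between chromosome ends, and many of their genes serve the use of sugars and other nutrients, the cell surface or stress. Next to the telomere, the Sir proteins spread over chromatin and repress nearby genes, a process named telomere position effect. Further inwards, repression depends more on histone deacetylases and on the regulators of each gene, and many subtelomeric genes are kept low in glucose-grown cells. Some ends also carry the Y' element, a repeat that encodes a helicase.

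The COS genes were the largest subtelomeric family in which most members were called. Their products are membrane proteins of the endosome that promote the sorting of plasma membrane proteins to the vacuole for breakdown. The family had 9 genes here, and all were tested. The starts of 5 coding sequences are shown because the members differ in how alike they are, which bears on how reads could be assigned to them. Each is the first 60 coding bases, read 5′ to 3′ from R64, and capitals mark bases that differ from COS1 at the same position.
COS1: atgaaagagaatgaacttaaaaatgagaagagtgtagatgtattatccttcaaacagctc
COS6: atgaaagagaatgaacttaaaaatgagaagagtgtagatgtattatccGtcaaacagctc
COS8: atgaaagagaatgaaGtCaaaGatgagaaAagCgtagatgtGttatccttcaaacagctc
COS12: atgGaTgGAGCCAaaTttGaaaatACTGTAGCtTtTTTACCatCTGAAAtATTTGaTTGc
COS10: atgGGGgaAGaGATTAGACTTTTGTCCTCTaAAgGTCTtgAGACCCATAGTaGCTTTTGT
COS2, COS3 and COS5 do not differ from COS1 in these bases, and COS7 starts as COS8 does. Over the whole coding sequence, COS2 and COS3 are identical to each other and 96.2% identical to COS1. COS6, COS5, COS7 and COS8 share 91.6%, 90.6%, 87.7% and 84.3% with COS1, and COS10 and COS12 share 63.2% and 62.6%. COS10 and COS12 are no closer to each other, at 59.7%.

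Of the 9 COS genes, 6 rose in the tor1 deletion, 2 fell and 1 did not pass the test, where 26.9% of all tested features rose and 24.9% fell. The 6 that rose, COS1, COS2, COS3, COS5, COS7 and COS8, belong to the 7 genes of high identity, and the 2 that fell are COS10 and COS12. COS1 (YNL336W, chromosome XIV, 8330 to 9475, plus strand) was at 14.3 and 19.0 CPM in the wild-type libraries and at 81.6 and 143 CPM in the deletion libraries. Its change was 2.76 ± 0.31 (log2 fold change of deletion over wild type ± SE, 2 libraries per strain; edgeR quasi-likelihood test, Benjamini-Hochberg adjusted over all tested features, adjusted p = 0.000648). The deletion libraries were far above the wild type and also differed from each other, by 1.75 times. These are RNA levels of whole cultures. A change in the number of expressing cells and a change in RNA per cell cannot be told apart, here and below.

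COS5 (YJR161C, chromosome X, 742848 to 743999) was at 4.27 and 4.04 CPM in the wild type and at 14.9 and 18.6 CPM in the deletion, a change of 2.01 ± 0.27 (edgeR adjusted p = 0.00125). COS7 (YDL248W, chromosome IV, 1802 to 2953) was at 7.56 and 7.80 CPM against 18.8 and 37.3 CPM, a change of 1.88 ± 0.35 (edgeR adjusted p = 0.00455). COS8 (YHL048W, chromosome VIII, 6401 to 7546) was at 43.3 and 46.9 CPM against 94.4 and 119 CPM, a change of 1.25 ± 0.19 (edgeR adjusted p = 0.00195). For these 3 genes the strains did not overlap and the wild-type libraries were nearly equal. The identical genes COS2 and COS3 together had 1.34 and 2.82 CPM in the wild type and 8.19 and 10.8 CPM in the deletion. Reads inside their coding sequences cannot be divided between them, so their separate changes, 2.61 ± 0.51 for COS2 and 1.99 ± 0.48 for COS3, are uncertain. Without wild-type library 1, COS2 was at 1.99 and COS3 at 1.57 with its call lost, and without wild-type library 2, COS2 was at 3.38. COS6 (YGR295C, chromosome VII, 1081584 to 1082729) was at 107 and 109 CPM in the wild type and at 114 and 177 CPM in the deletion. It had the highest level of the family in both strains and did not pass, at 0.43 ± 0.23 (edgeR adjusted p = 0.156). Without deletion library 1 it was at 0.73 and passed.

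COS12 (YGL263W, chromosome VII, 2790 to 3932) went the other way, at 12.3 and 6.58 CPM in the wild type and 3.02 and 1.90 CPM in the deletion, a change of -1.98 ± 0.44 (edgeR adjusted p = 0.00881). Its call ended without wild-type library 1, at -1.43. COS10 (YNR075W, chromosome XIV, 779916 to 781040) was at 7.81 and 7.05 CPM against 2.59 and 1.80 CPM, a change of -1.78 ± 0.34 (edgeR adjusted p = 0.00515). Summed over the 7 genes of 83% identity or more, the level was 178, 189, 332 and 506 CPM (wild-type library 1, wild-type library 2, deletion library 1, deletion library 2), a ratio of 2.28, and for COS10 and COS12 it was 20.1, 13.6, 5.60 and 3.70 CPM, a ratio of 0.276. COS1, COS2, COS3 and COS6 also have a near-identical copy outside the sum, YFL062W, and COS8 has YIR043C, so reads may be shared with genes that the sum leaves out. This grouping by identity was made after the values were seen. Per kb of gene, the wild-type order of mean levels was COS6 (94.1 CPM per kb), COS8 (39.3), COS1 (14.5), COS12 (8.27), COS7 (6.67), COS10 (6.61), COS5 (3.61), COS3 (1.14) and COS2 (0.682). In that order the neighbours COS12, COS7 and COS10 overlapped between libraries, as did COS3 and COS2. In the deletion, COS1 reached 97.8 CPM per kb and overlapped COS8 (93.2) and COS6 (127). How reads shared between near-identical genes were assigned is not stated. These levels per kb therefore describe assigned reads, and the places of COS2 and COS3 are uncertain.

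**Figure D1:**
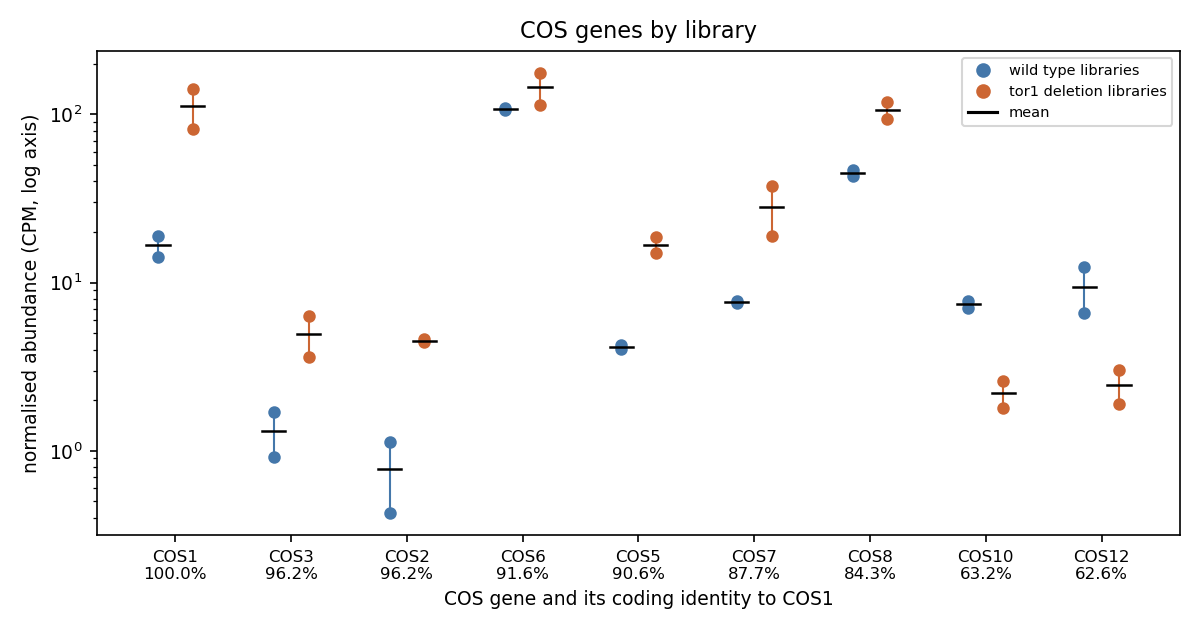
Normalised abundance (CPM, log axis) of the 9 COS genes in each library, ordered by the identity of their coding sequence to COS1. Points are the 2 libraries of a strain joined by a line, and the bar is their mean. The 7 genes with 84.3% identity or more have their deletion libraries above the wild type, and COS10 and COS12 have them below.

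A second pair of genes for membrane sorting, VTH1 and VTH2, encode relatives of the vacuolar sorting receptor Vps10. They did not pass, at -0.75 ± 0.37 and -0.50 ± 0.33 (edgeR adjusted p = 0.129 and 0.245). VTH1 was called lower with upper quartile factors (-1.14) and with library totals (-1.07).

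Over the whole set, rises and falls were about equally frequent. A feature entered the test if its reads sufficed in at least 2 libraries, which 85 of the 120 subtelomeric genes did, and of these 19 rose, 20 fell and 46 did not pass (edgeR quasi-likelihood test, adjusted p below 0.05). A gene could enter through the strain in which it was higher, so these are counts over the genes that entered. Of the 5957 other reading frames tested, 51.9% were called, 27.5% higher and 24.4% lower, against 45.9% of the subtelomeric genes. Over all 6197 tested features 51.8% were called. Wild-type and deletion libraries were apart for 68 of the 85 genes, or 80.0%, where this held for 78.9% of the other reading frames. The share called among the chromosome-end genes was thus near or under the background. Their median log2 fold change was -0.26, and that of the other reading frames 0.01.

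The split between directions rested on the normalisation. With TMM factors 48.7% of the subtelomeric calls were higher and 53.1% of those of other reading frames. With library totals these shares were 36.2% (17 higher, 30 lower) and 34.4%, and with upper quartile factors 32.6% (15 higher, 31 lower) and 31.4%. These scalings moved the median of all features by -0.33 and -0.39. Together the 200 genes took 0.210% of reads in each wild-type library and 0.212% and 0.259% in the deletion libraries. Their summed level was 1849, 1898, 2455 and 2812 CPM. Without GTT1 and MAL31, described below, it was 1704, 1758, 1819 and 1869 CPM, so that these 2 genes held most of the difference.

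**Figure D2:**
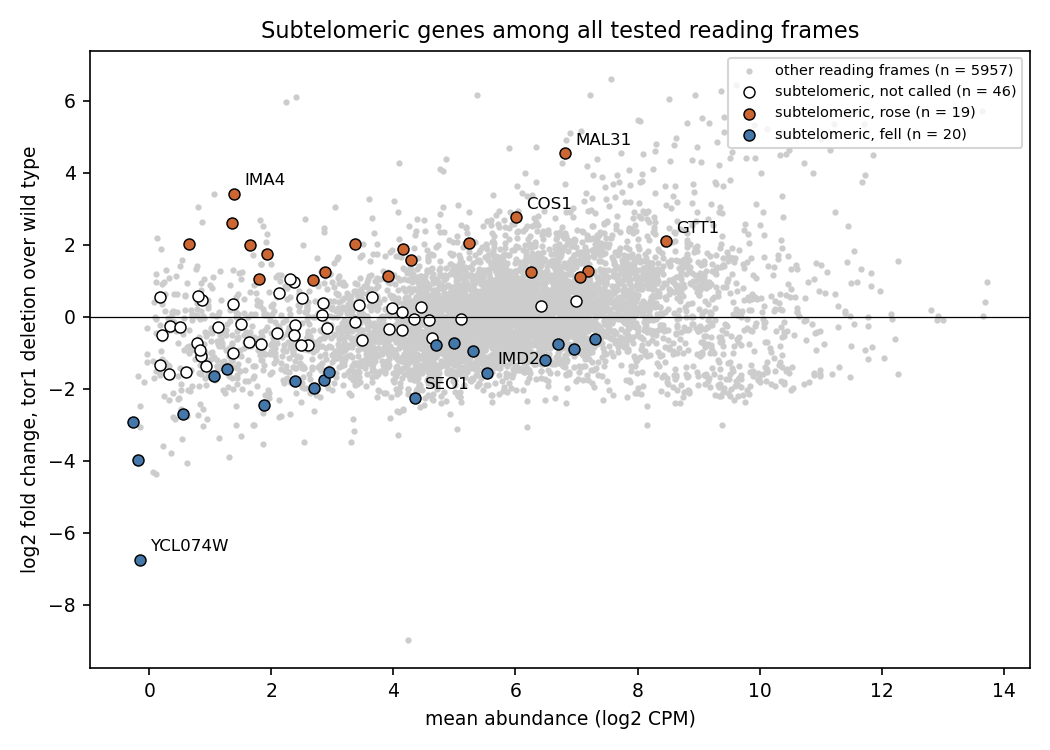
Log2 fold change of deletion over wild type against mean abundance (log2 CPM) for each tested reading frame. Grey points are the 5957 other reading frames, and circles are the 85 subtelomeric genes, filled where called. Most subtelomeric genes sit in the left, low-abundance part of the cloud, and among them MAL31 has the largest rise, at 4.55, and YCL074W the largest fitted fall.

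The tested chromosome-end genes were scarcer than other genes, with a median of 2.68 log2 CPM against 5.76. Among genes under 2 log2 CPM, 6 of 32 subtelomeric genes rose and 7 fell, where 5.49% of the 328 other reading frames rose and 24.1% fell. Between 2 and 5 log2 CPM, 6 of 37 rose and 7 fell, where 12.3% of 1567 others rose and 33.6% fell. At 5 log2 CPM and over, 7 of 16 rose and 6 fell, where 35.2% of 4062 others rose and 20.9% fell. No test of these differences was run.

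**Figure D3:**
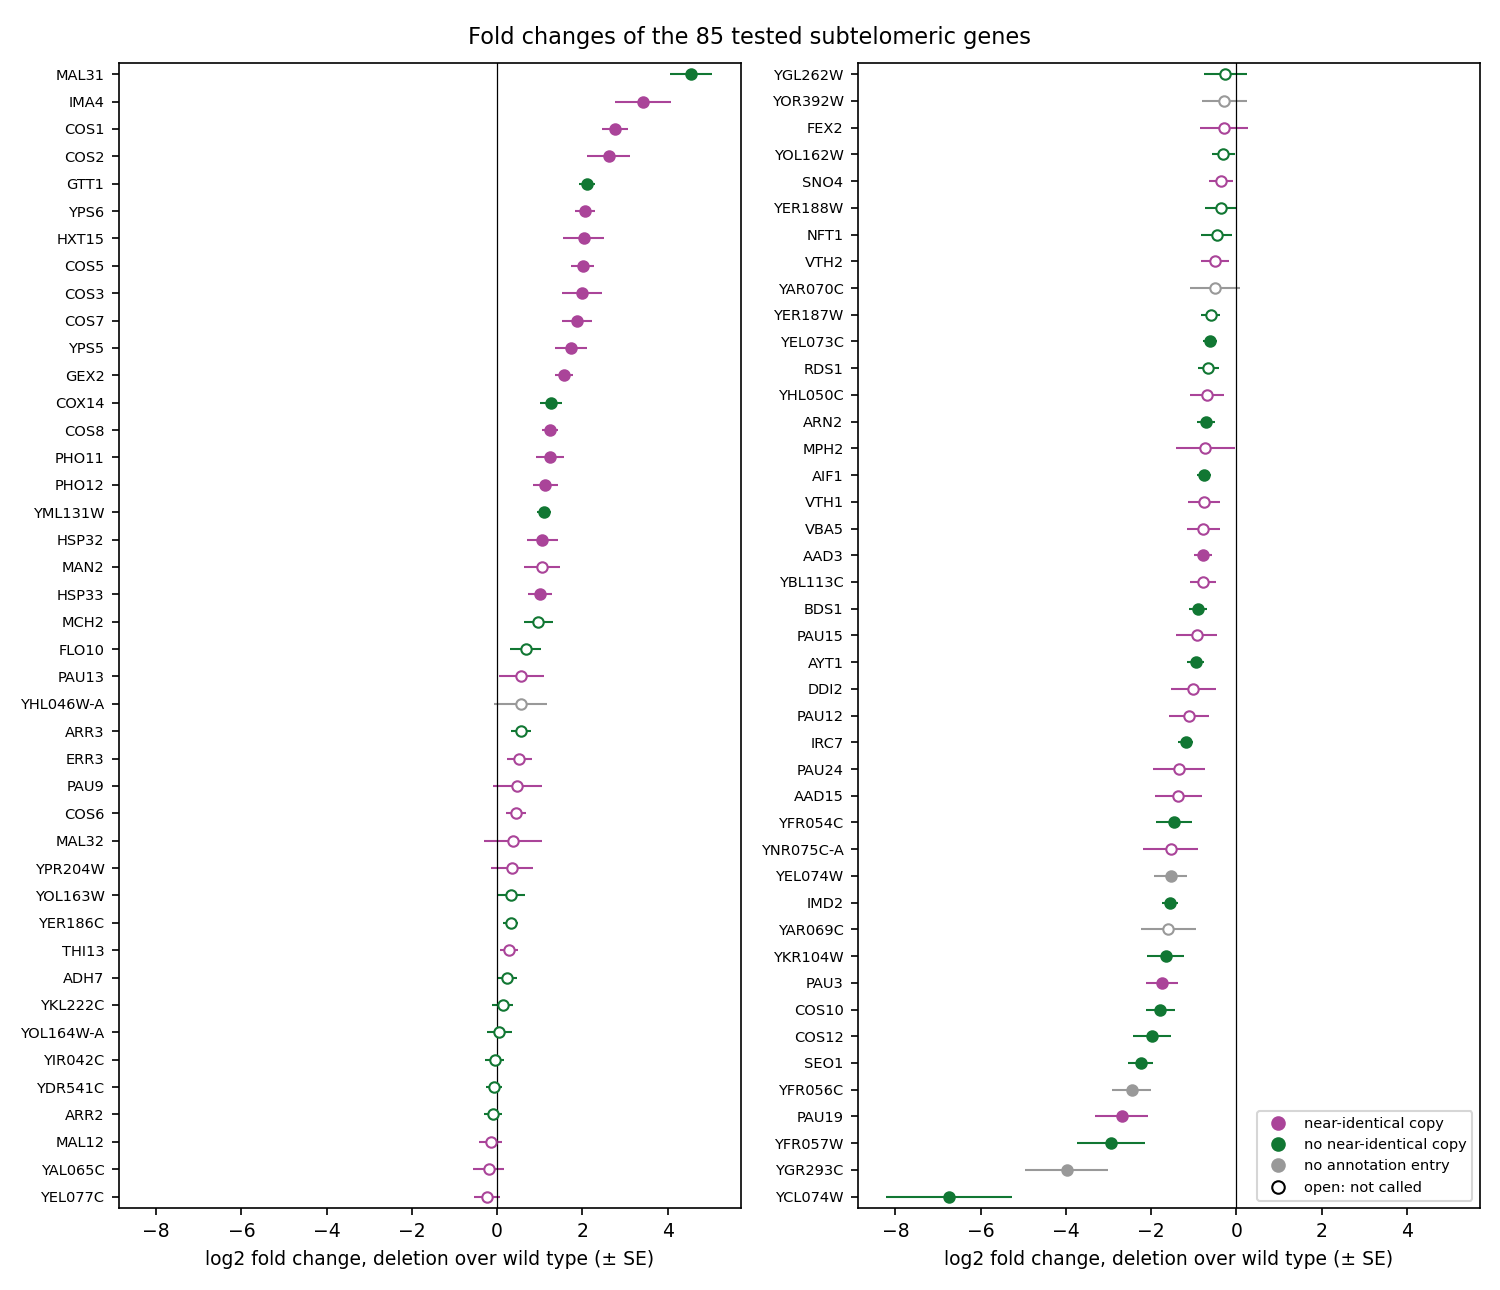
Log2 fold change (deletion over wild type) with its SE for all 85 tested subtelomeric genes, ranked from the upper left to the lower right on the same scale in both panels. Filled symbols passed the test, and colour gives whether R64 holds a near-identical copy. The 19 rises reach 4.55 for MAL31, and the 20 falls end with YCL074W, whose deletion libraries had no read.

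Genes for sugar use held the largest rise. MAL31 (YBR298C, chromosome II, 802631 to 804475, minus strand) encodes a maltose permease and is divergently transcribed from MAL32 (YBR299W, 805351 to 807105, plus strand), which encodes a maltase. MAL31 was at 9.88 and 8.56 CPM in the wild type and at 114 and 319 CPM in the deletion. Both deletion libraries stood more than 10-fold above the wild type, and they differed from each other by 2.79 times. The change was 4.55 ± 0.50 (edgeR adjusted p = 0.000607), and 3.62 without deletion library 2. MAL32 was at 4.64 and 7.80 CPM in the wild type and at 2.30 and 13.2 CPM in the deletion. Its deletion libraries lay on either side of the wild type, and it did not pass (0.38 ± 0.68, edgeR adjusted p = 0.662). Without deletion library 1 it was called higher, at 1.13, and without deletion library 2 it was called lower, at -1.40. MAL32 has a near-identical copy, the maltase gene MAL12 (YGR292W, chromosome VII), which was at 10.2, 11.3, 8.04 and 11.1 CPM and did not pass, at -0.15 ± 0.27 (edgeR adjusted p = 0.654). Without deletion library 1 MAL12 was at 0.065.

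The upstream region of MAL31 is shown because it lies between these divergent genes with unlike values, and that of GTT1, described below, because GTT1 had the highest CPM of the set in the deletion. Each is a window of 300 bases that ends 100 bases before the start codon, read 5′ to 3′ on the strand of the gene from R64, at chrII:804576-804875 and chrIX:424614-424913, both on the minus strand. Capitals mark AGGGG or, on the other strand, CCCCT, the stress response element that the stress factors Msn2 and Msn4 bind.
MAL31: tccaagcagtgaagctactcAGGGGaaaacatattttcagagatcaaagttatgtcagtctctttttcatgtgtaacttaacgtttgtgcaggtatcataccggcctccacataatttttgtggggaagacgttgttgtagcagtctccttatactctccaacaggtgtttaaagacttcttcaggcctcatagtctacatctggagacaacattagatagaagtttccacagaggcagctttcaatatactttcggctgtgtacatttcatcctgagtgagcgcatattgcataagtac
GTT1: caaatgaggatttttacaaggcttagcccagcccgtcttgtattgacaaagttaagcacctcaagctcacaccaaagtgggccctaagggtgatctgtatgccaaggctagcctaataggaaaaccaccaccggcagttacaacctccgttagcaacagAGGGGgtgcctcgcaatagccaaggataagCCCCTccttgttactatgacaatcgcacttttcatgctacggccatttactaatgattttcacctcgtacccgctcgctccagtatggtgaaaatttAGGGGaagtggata
The MAL31 window holds 1 match and the GTT1 window 3. In the same window, 23.5% of 5986 reading frames had at least 1 match. Among subtelomeric genes it was 7 of the 19 that rose, 4 of 16 that fell and 10 of 42 that did not pass. Among the other reading frames it was 40.1% of those that rose and 15.04% of those that fell. The letters CCCCG were taken for the core bound by the glucose repressor Mig1. CCCCG was in 1 of the 19 windows of risen genes and in 12.2% of all. These letters were in 1 of 16 windows of fallen and 7 of 42 of uncalled genes. Other forms of the Mig1 core were not searched, so a window without CCCCG may still hold a Mig1 site. Of the sterol response letters, TCGTATA was in 1 of the 19, 1 of the 16 and 4 of the 42, and in 4.56% of all. TCGTTTA was in 3 of the 19, 2 of the 16 and 6 of the 42, and in 5.93% of all. All motifs were searched on both strands, and a match is a description of letters and not a measured site.

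IMA4 (YJL221C, chromosome X, 16767 to 18536) encodes an isomaltase and was at 0.427 and 0.470 CPM in the wild type and at 2.44 and 7.09 CPM in the deletion. It rose by 3.42 ± 0.65 (edgeR adjusted p = 0.00469), or by 2.43 without deletion library 2. HXT15 (YDL245C, chromosome IV, 11657 to 13360), of the hexose transporter family, was at 0.549 and 0.658 CPM against 2.87 and 2.12 CPM. HXT15 rose by 2.03 ± 0.48 (edgeR adjusted p = 0.0114), a call that ended without wild-type library 1, at 1.89. Both genes were close to the limit of detection in the wild type, where 3 reads correspond to 0.183 and 0.282 CPM. Both have near-identical copies. MPH2, an alpha-glucoside permease gene, did not pass, at -0.72 ± 0.68 (edgeR adjusted p = 0.401), but was called lower, at -2.64, without deletion library 2, and was at -0.03 without deletion library 1. MAN2, a mannitol dehydrogenase gene, and ERR3, an enolase-related gene, did not pass either, at 1.05 ± 0.42 and 0.52 ± 0.29 (edgeR adjusted p = 0.0717 and 0.17). MAN2 passed with the replicate block (1.01) and without deletion library 1 (1.39). Of the 8 tested genes in the sugar group 3 rose and none fell, where 27.5% and 24.4% of other reading frames did.

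At the cell surface, both yapsin genes rose and no tested seripauperin gene did. Yapsins are aspartic proteases anchored in the cell surface. YPS6 (YIR039C, chromosome IX, 430498 to 432111) was at 14.3 and 15.05 CPM in the wild type and at 49.6 and 72.3 CPM in the deletion, a rise of 2.06 ± 0.24 (edgeR adjusted p = 0.000748). YPS5 (YGL259W, chromosome VII, 8470 to 8967) was at 1.53 and 2.07 CPM against 4.74 and 6.98 CPM. YPS5 rose by 1.73 ± 0.38 (edgeR adjusted p = 0.00884), a call that ended without wild-type library 1, at 1.51. The pair share a stretch of near-identical sequence, so YPS5 may hold reads of YPS6. FLO10, a flocculin gene, did not pass, at 0.67 ± 0.36 (edgeR adjusted p = 0.158).

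Seripauperins, the PAU genes, encode small mannoproteins of the cell wall that are known to rise without oxygen. Of 17 PAU genes 10 had at least 10 reads and 7 were tested, of which PAU3 and PAU19 fell and 5 did not pass. That is 28.6% lower, near the 24.9% of all tested features and the 24.1% of other reading frames under 2 log2 CPM. PAU3 (YCR104W, chromosome III, 307801 to 308175) was at 10.8 and 10.2 CPM in the wild type and at 4.31 and 2.12 CPM in the deletion, a change of -1.74 ± 0.38 (edgeR adjusted p = 0.00795). PAU19 (YMR325W, chromosome XIII) was at 1.59 and 2.54 CPM against 0.287 and 0.317 CPM, a change of -2.69 ± 0.62 (edgeR adjusted p = 0.0107), and its call ended without wild-type library 2, at -2.33. The next by p, PAU12 and PAU24, did not pass, at -1.10 ± 0.47 and -1.34 ± 0.61 (edgeR adjusted p = 0.0859 and 0.104). Both were called lower with upper quartile factors (-1.49 and -1.72) and with library totals (-1.42 and -1.66). PAU24 was at -1.95 without deletion library 1. The only tested PAU genes with a positive change, PAU9 and PAU13, did not pass, at 0.47 ± 0.57 and 0.57 ± 0.52 (edgeR adjusted p = 0.517 and 0.387). They were named after their values were seen. The summed level of the 17 genes was 21.7, 23.2, 9.62 and 10.9 CPM, a ratio of 0.457. PAU3 and PAU19 are 98.1% identical, and PAU12 is 85.6% identical to PAU3. PAU15, named after its value was seen, is 96% identical to PAU3 and did not pass, at -0.93 ± 0.48 (edgeR adjusted p = 0.144). The starts of these genes are shown because they bear on how reads could be assigned, with capitals for bases that differ from PAU3.
PAU3: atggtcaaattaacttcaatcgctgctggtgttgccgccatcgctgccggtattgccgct
PAU19: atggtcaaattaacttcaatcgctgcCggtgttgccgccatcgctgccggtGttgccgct
PAU15: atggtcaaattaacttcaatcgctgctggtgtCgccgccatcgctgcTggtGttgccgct
PAU12: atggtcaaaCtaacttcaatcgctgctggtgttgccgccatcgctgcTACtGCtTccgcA
PAU19, PAU15 and PAU12 differ from PAU3 at 2, 3 and 8 of these 60 bases.

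Among transporter genes other than those for sugars, 1 rose, 2 fell and 5 did not pass, or 37.5% called where 51.8% of all tested features were. GEX2 (YKR106W, chromosome XI, 661442 to 663289), which encodes a glutathione exchanger, was at 10.005 and 9.87 CPM in the wild type and at 30.4 and 28.7 CPM in the deletion. The libraries within each strain were nearly equal, and GEX2 rose by 1.57 ± 0.22 (edgeR adjusted p = 0.00138). GEX2 has a near-identical copy, GEX1, which is also at a chromosome end and had 8 reads in all. SEO1 (YAL067C, chromosome I), a permease gene of the allantoate transporter family, was at 37.0 and 28.3 CPM against 8.33 and 5.61 CPM, a change of -2.24 ± 0.29 (edgeR adjusted p = 0.00111). ARN2 (YHL047C, chromosome VIII, 8351 to 10213), a siderophore transporter gene, was at 43.3 and 35.5 CPM against 22.0 and 25.7 CPM. ARN2 fell by 0.72 ± 0.21 on the log2 scale (edgeR adjusted p = 0.0253), a call that ended without wild-type library 1 (-0.56) or 2 (-0.85). MCH2, a relative of monocarboxylate transporters, did not pass, at 0.96 ± 0.34 (edgeR adjusted p = 0.0505), and passed with RLE factors (0.97), with no low-count filter (0.98), with the 50-read filter (0.94) and without deletion library 1 (1.23).

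Of 13 tested genes for enzymes and other named genes outside the families, 2 rose, GTT1 and COX14, 5 fell and 6 did not pass. That is 15.4% higher and 38.5% lower, where 26.9% and 24.9% of all tested features were. YML131W, counted below among the genes with no family name, rose as well. GTT1 (YIR038C, chromosome IX, 423809 to 424513) encodes a glutathione S-transferase of the endoplasmic reticulum and was at 134 and 132 CPM in the wild type and at 523 and 625 CPM in the deletion. It rose by 2.11 ± 0.19 (edgeR adjusted p = 0.000296), with the strains far apart and no near-identical copy. COX14 (YML129C, chromosome XIII, 14541 to 14753), which acts in the assembly of cytochrome c oxidase, was at 88.2 and 84.3 CPM against 262 and 153 CPM, a rise of 1.26 ± 0.27 (edgeR adjusted p = 0.00724). YML131W (chromosome XIII, 10198 to 11295), similar to medium-chain dehydrogenases, was at 83.8 and 86.2 CPM against 181 and 184 CPM, a rise of 1.10 ± 0.16 (edgeR adjusted p = 0.00172). Per kb of gene, the deletion levels were 973 CPM per kb for COX14, 814 for GTT1 and 166 for YML131W.

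IMD2 (YHR216W, chromosome VIII, 554396 to 555967), an IMP dehydrogenase gene of GTP synthesis, was at 65.5 and 70.9 CPM in the wild type and at 24.7 and 21.9 CPM in the deletion, a change of -1.55 ± 0.18 (edgeR adjusted p = 0.000787). IRC7 (YFR055W, chromosome VI, 264204 to 265226), a cysteine desulfhydrase gene, was at 113 and 135 CPM against 56.9 and 51.8 CPM, a change of -1.19 ± 0.18 (edgeR adjusted p = 0.0019). In both genes the deletion libraries lay together and well under the wild type. AYT1, a trichothecene acetyltransferase gene, fell by 0.95 ± 0.20 on the log2 scale, BDS1, a sulfatase gene, by 0.90 ± 0.22 and AIF1, a mitochondrial cell death factor gene named after its value was seen, by 0.75 ± 0.16 (edgeR adjusted p = 0.00787, 0.0133 and 0.0084). Without wild-type library 1 the calls of AYT1 (-0.91), BDS1 (-0.87) and AIF1 (-0.77) ended, and that of AIF1 also ended without wild-type library 2 (-0.72).

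PHO11 and PHO12, near-identical genes for secreted acid phosphatases, had a summed level of 11.2, 16.7, 35.2 and 27.1 CPM. They rose by 1.24 ± 0.33 and 1.13 ± 0.29 (edgeR adjusted p = 0.0178 and 0.0157). Both calls ended with upper quartile factors (0.85 and 0.73) and without wild-type library 1 (0.98 and 0.85). HSP33 and HSP32, close relatives of the chaperone and glyoxalase gene HSP31, rose by 1.01 ± 0.29 and 1.06 ± 0.37 (edgeR adjusted p = 0.0224 and 0.048). The third relative, SNO4, was at -0.35 ± 0.29 (edgeR adjusted p = 0.33). HSP33, HSP32 and SNO4 are near-identical copies of each other, so their separate changes depend on how shared reads were assigned. Their summed level was 19.5, 27.5, 28.4 and 24.5 CPM, a ratio of 1.13, and the strains overlapped. The calls of HSP33 and HSP32 ended with upper quartile factors (0.62 and 0.67), with library totals (0.69 and 0.73) and without wild-type library 1 (0.90 and 0.88) or 2 (1.13 and 1.26), and that of HSP32 also without deletion library 1 (0.83), with no low-count filter (1.07), with DESeq2 (1.07) and with the authors' deposited table (1.05). AAD3, a putative aryl-alcohol dehydrogenase gene, fell by 0.77 ± 0.21 on the log2 scale (edgeR adjusted p = 0.0201), a call that ended without wild-type library 1 (-0.85) or 2 (-0.67). Its relative AAD15 did not pass, at -1.36 ± 0.56 (edgeR adjusted p = 0.079), and passed with upper quartile factors (-1.75), with library totals (-1.68) and without deletion library 2 (-2.40).

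**Figure D4:**
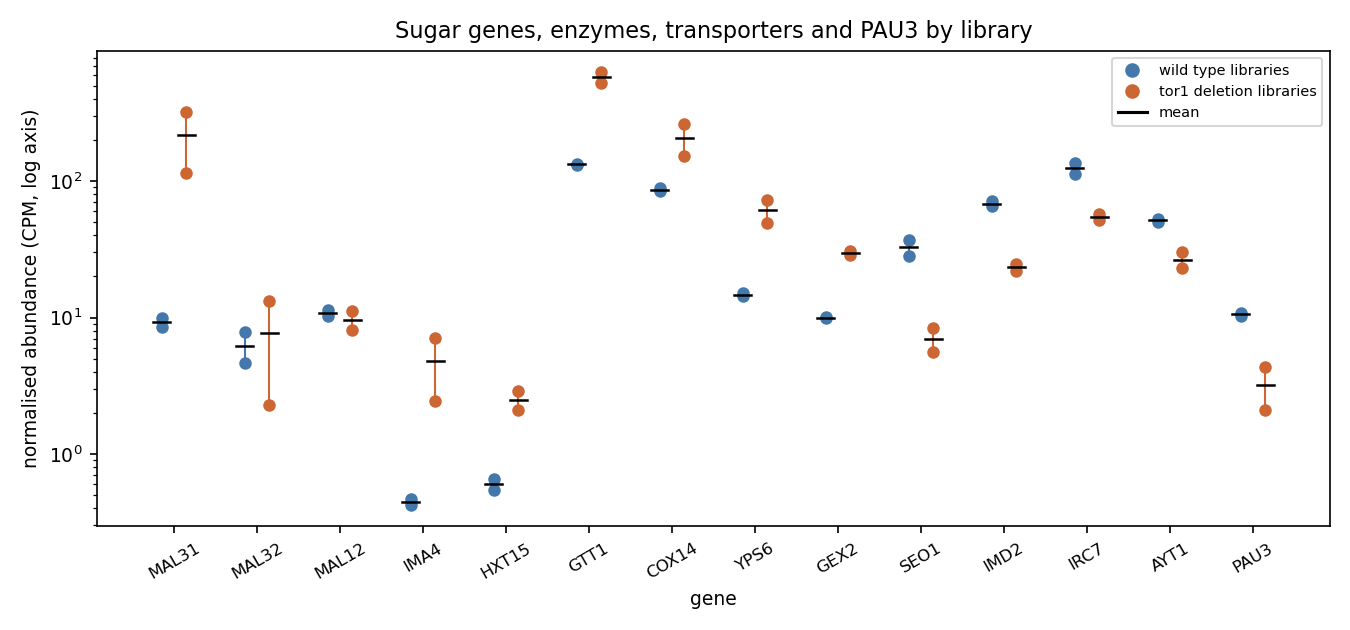
Normalised abundance (CPM, log axis) of 14 subtelomeric genes in each library. Points are the 2 libraries of a strain joined by a line, and the bar is their mean. MAL32 spans 2.30 to 13.2 CPM in the deletion and overlaps the wild type, while MAL31 lies at 114 and 319 CPM against 9.88 and 8.56 CPM.

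The summed level of the Y' helicase genes differed between strains by less than the spread within them, but this depended on which genes entered the sum. Of 16 genes taken as the family 13 had at least 10 reads. The summed level of all 16 was 10.4 and 14.2 CPM in the wild type and 10.3 and 13.9 CPM in the deletion, a ratio of 0.985. YBL113C and YHL050C have genes of the family among their near-identical copies. With both added the sum was 21.2, 24.9, 15.9 and 20.9 CPM, a ratio of 0.800, and the strains did not overlap. With all 35 genes that are in the family or have a member of it as a near-identical copy, the sum was 22.4, 27.0, 18.4 and 23.7 CPM, a ratio of 0.852, and the strains overlapped. These wider sums were made after the values were seen. YBL113C was at 6.77, 7.80, 3.88 and 4.55 CPM and did not pass, at -0.78 ± 0.30 (edgeR adjusted p = 0.0635), but was called lower with upper quartile factors (-1.17), with library totals (-1.10) and with the 50-read filter (-0.80). YHL050C was at 4.03, 2.92, 1.72 and 2.54 CPM and did not pass, at -0.69 ± 0.40 (edgeR adjusted p = 0.182). Of the 16, 2 could be tested singly, YEL077C at -0.23 ± 0.30 and YPR204W at 0.35 ± 0.49 (edgeR adjusted p = 0.539 and 0.572), and YPR204W changed sign with upper quartile factors (-0.049), without wild-type library 1 (-0.043) and without deletion library 2 (-0.19). Both have more than 20 near-identical copies, so their separate counts depend on how shared reads were assigned.

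Of the genes with no family name here, 1 of 26 tested rose, YML131W, and 8 fell, or 34.6% called and 30.8% lower, where 51.8% of all tested features were called and 24.9% were lower. YEL073C (chromosome V, 7230 to 7553), of no known function, had the highest wild-type level per kb of the set, 590 CPM per kb. It was at 187 and 195 CPM in the wild type and at 131 and 118 CPM in the deletion and fell by 0.62 ± 0.16 on the log2 scale (edgeR adjusted p = 0.0178), a call that ended without wild-type library 1 (-0.65) or 2 (-0.58). YEL074W, its neighbour by name, was at 9.94 and 11.8 CPM against 5.17 and 2.43 CPM and fell by 1.54 ± 0.39 (edgeR adjusted p = 0.0145), or by 2.13 without deletion library 1. YEL074W has no entry in the annotation, and whether it overlaps a neighbour was not checked. YKR104W, part of an ABC transporter gene that is split in this strain background, was at 2.68 and 2.73 CPM against 0.862 and 0.846 CPM. The neighbouring transporter gene NFT1 (YKR103W), named after its value was seen, was at 5.61 and 3.57 CPM against 3.59 and 3.17 CPM. NFT1 did not pass, at -0.46 ± 0.37 (edgeR adjusted p = 0.319). YKR104W fell by 1.65 ± 0.43 (edgeR adjusted p = 0.0171), a call that ended with DESeq2 (-1.65) and without wild-type library 1 (-1.65), wild-type library 2 (-1.63) or deletion library 2 (-1.63).

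Some falls ended at or near 0 reads, and these genes were named after their values were seen. YCL074W (chromosome III, 2824 to 3750), a pseudogene with a fragment of a Ty retrotransposon, had 15 and 17 reads in the wild type and none in the deletion. Taking 3 reads per library as the limit that a count of 0 allows, it was at least 3.36-fold lower. YGR293C has no annotation entry, and whether it overlaps a neighbour was not checked. It was at 1.28 and 0.940 CPM in the wild type and had 0 and 1 read in the deletion. Its fitted change, -3.98 ± 0.98 (edgeR adjusted p = 0.0131), was -3.29 without deletion library 1 and -6.69 without deletion library 2, so its size depended on a few reads.

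A further 35 genes with at least 10 reads were not tested, and those named here were chosen after their values were seen. When the filter on low counts was dropped, YBL108W (13, 15, 0 and 0 reads in the same order of libraries), YNL337W (9, 14, 0 and 0), YCL076W (20, 9, 1 and 1), PAU8 (11, 6, 0 and 0) and YAL066W (30, 6, 0 and 2) passed as lower. YFL067W (3, 2, 5 and 16) passed as higher. Of these, YBL108W, YNL337W, YCL076W and YAL066W have no annotation entry, and whether they overlap a neighbour was not checked. Without the filter 26.7% of other reading frames were called higher and 23.1% lower. Just inside the limit of 10 reads lay PAU10 (4, 2, 3 and 1 reads) and YLL067C (1, 4, 3 and 2), and just outside it YOL166C (4, 3, 1 and 1) and the Y' helicase gene YRF1-7 (4, 1, 2 and 2).

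By arm, the right end of chromosome VI had all of its 4 tested genes lower, and the left end of chromosome XIII had all of its 3 tested genes, COS3, YML131W and COX14, higher, where 24.9% of all tested features were lower and 26.9% higher. These arms were picked out after the values were seen, and each also lacks 1 of the genes that were left out, so the counts cover the genes analysed here. On the right end of chromosome VI the gene nearest the telomere is YFR057W (269061 to 269516), of unknown function and known as a target of Sir-dependent repression. It was at 0.915 and 1.13 CPM in the wild type and at 0.144 and 0.106 CPM in the deletion, which is 1 read in each deletion library. Its fitted change was -2.93 ± 0.80 (edgeR adjusted p = 0.0196), and its call ended with DESeq2 (-3.04) and without wild-type library 2 (-2.79), deletion library 1 (-3.12) or deletion library 2 (-2.72). Next to it by name, YFR056C was at 5.002 and 6.02 CPM against 1.44 and 0.635 CPM, a change of -2.45 ± 0.46 (edgeR adjusted p = 0.00459), or -3.08 without deletion library 1. YFR056C has no annotation entry and carries the number that follows that of IRC7, so the reads of the pair may not be separate. YFR054C (258855 to 259433) was at 3.11 and 3.01 CPM against 1.29 and 0.952 CPM, a change of -1.46 ± 0.42 (edgeR adjusted p = 0.0235). The call of YFR054C ended with DESeq2 (-1.45) and without wild-type library 1 (-1.42), wild-type library 2 (-1.47) or deletion library 2 (-1.23).

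Along the arms, the share of genes called did not change steadily with gene number. Among genes with the highest number of their arm 3 rose and 2 fell of 10 tested, among those with the second highest 2 rose and 3 fell of 12, with the third 3 and 6 of 15, with the fourth 5 and 6 of 21, and with the fifth 6 and 3 of 27. Of the genes numbered 6 to 10 from the end, 28 of 143 rose and 24 fell, or 36.4% called, which was under the 52.3% of genes more than 40 numbers from the end. By distance in R64, 14 of 65 tested genes within 10 kb of an end rose and 17 fell, and between 10 and 20 kb it was 18 and 20 of 109. The gap between genes present and genes tested was widest at the tip, where 10 of 54 genes could be tested, against 27 of 34 at the fifth number.

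**Figure D5:**
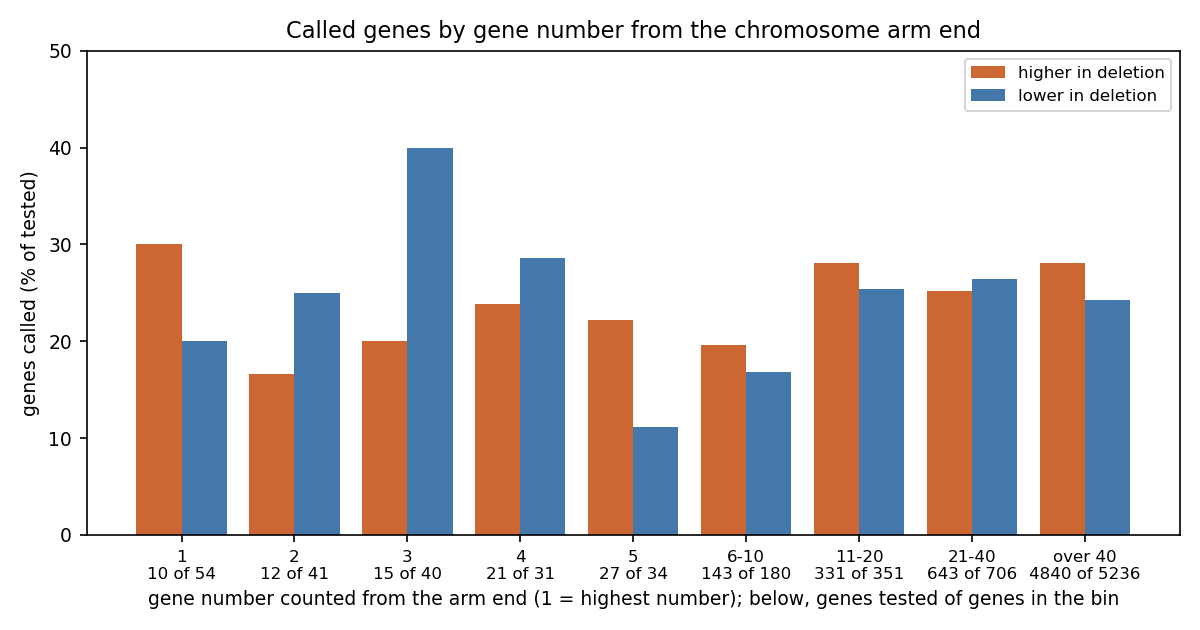
Share of tested genes called higher or lower in the deletion (% of tested genes) by gene number counted from the arm end, where 1 is the highest number of an arm. Under each bin stand the genes tested and all genes in it. The first 5 bins rest on 10 to 27 genes, and their shares scatter around those of the inner bins.

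Sequence sharing differed between risen and fallen genes. A near-identical copy is a separate R64 gene whose sequence matches at no less than 90% identity along 50% or more of the shorter gene. Of 43 tested subtelomeric genes with such a copy 15 rose and 3 fell, with a median log2 fold change of 0.35, and without the COS genes it was 9 and 3 of 36, with a median of -0.21. Of 35 without a copy 4 rose, namely MAL31, GTT1, COX14 and YML131W, and 14 fell, with a median of -0.36. Of 7 with no annotation entry none rose and 3 fell. Among the other reading frames with no entry 8.78% rose and 26.3% fell of 262. Among those with a copy 9.77% rose and 37.2% fell of 215, and among those without 29.1% rose and 23.8% fell of 5480. This split was made after the values were seen, and the difference was not tested. The treatment of reads that align to several places is not stated in these sources.

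Genes for telomere and silencing factors, taken as a list of 36, gave 2 rises, 9 falls and a median log2 fold change of -0.13, or 30.6% called where 51.8% of all tested features were. The rises were SIR2, the deacetylase of the Sir complex and named after its value was seen, at 0.74 ± 0.22, and YKU70, a subunit of the end-binding Ku complex, at 0.86 ± 0.20 (edgeR adjusted p = 0.0261 and 0.0098). EST2, the catalytic subunit of telomerase, had 465 and 289 wild-type reads against 71 and 76 in the deletion, or 27.8 ± 0.84 and 9.12 ± 1.53 CPM (SD, n = 2), a change of -1.61 ± 0.24 (edgeR adjusted p = 0.0018). SIR3, which spreads along silenced chromatin, was at 26.2 ± 0.16 CPM against 14.5 ± 0.24 CPM, a change of -0.85 ± 0.21 (edgeR adjusted p = 0.0134). The histone methyltransferase genes DOT1 and SET1 and the acetyltransferase gene SAS2 fell by 0.92 ± 0.24, 0.79 ± 0.21 and 0.94 ± 0.26 on the log2 scale (edgeR adjusted p = 0.0167, 0.0189 and 0.0194). The calls of SIR3, DOT1, SET1 and SAS2 ended without wild-type library 1 (-0.85, -0.97, -0.74 and -0.92), and those of SIR3, DOT1 and SET1 also without wild-type library 2 (-0.84, -0.86 and -0.82). SIR2 lost its call without wild-type library 1 (0.86) or 2 (0.65), with upper quartile factors (0.35) and with library totals (0.41). YKU70 lost its call without wild-type library 1 (0.83) or 2 (0.91), with upper quartile factors (0.47) and with library totals (0.54). EST2 kept its call in all 12 alternatives. The other falls were SIR1 (-0.66), RIF1 (-0.89), RIF2 (-0.84) and EST3 (-0.64), whose calls were not followed through the alternatives. YKU80, SIR4 and EST1 of the same list did not pass, at 0.22 ± 0.23, -0.35 ± 0.33 and -0.18 ± 0.24 (edgeR adjusted p = 0.44, 0.407 and 0.569). These further genes were named after their values were seen.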

How the data were processed

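Poly(A) RNA of 2 wild-type and 2 tor1 deletion libraries was analysed. The authors deposited raw read counts for 7127 features, and the submitters' processing notes name FastQC, Subread, featureCounts and the build sacCer3. For strand setting, annotation release and multiply aligned reads nothing is stated there, so overlapping or antisense genes may share reads and cannot be told apart. A second table that the authors deposited holds log10 values of the scaled count plus 1 for 6519 features and served as an alternative. Library totals were 14446057 and 9623963 (wild type) and 8060480 and 10244377 (deletion), where 3 reads equal 0.183 to 0.431 CPM. Such floors cover counting error only.

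Counts were filtered with filterByExpr (6197 features kept, 930 removed), scaled by TMM and tested in edgeR 4.0.16 (quasi-likelihood F test, R 4.3.3), with strain as the only term and Benjamini-Hochberg adjustment over all features at 0.05. SE was taken as the size of the log2 fold change over the root of F. The biological coefficient of variation was 17.8%. The code was tested on simulated data. Alternatives were DESeq2 1.42.0, RLE and upper quartile factors, library totals, no filter, 50 reads in 2 libraries, a replicate block, each library left out, limma 3.58.1 on the authors' table and other limits for the chromosome ends. Sequences and positions came from RefSeq's R64 assembly, which is sacCer3, and near-identical copies from blastn 2.17.0.

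The genes and lists were chosen with earlier results of these data known, and the families were regrouped after the counts were seen. Genes were named by rule, as the 12 largest called rises and falls with a mean of at least 1 log2 CPM and no overlap, the 5 most abundant, up to 4 per family by p and up to 6 called telomere and silencing genes, and others are marked as chosen after their values were seen.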

Additional observations from a re-analysis of the deposited data

How the results depend on the processing

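Of the 39 called subtelomeric genes, 21 (12 rises and 9 falls) kept the call in every alternative, of 12, that tested them. The other 18 lost the call in at least 1, and none turned direction. COS2, IMA4, YCL074W and YGR293C are among the 21 but were not tested with 50 reads in 2 libraries. YGR293C was also not tested without wild-type library 1. Without wild-type libraries 1 and 2, 16 and 10 calls ended, and without deletion libraries 1 and 2, 2 and 3 ended. With DESeq2 and upper quartile factors 4 each ended, with library totals 2, with no filter 1, with limma on the authors' deposited values 1, and with RLE factors, 50 reads in 2 libraries and the replicate block none. The 50-read filter left 52 subtelomeric genes to test, so calls of the scarcer genes it removed could not end there. Leaving out 1 library gave 12 to 26 subtelomeric genes higher, 10 to 27 lower and medians of -0.42 to -0.12, with 1960 to 4460 of all features and 1873 to 4307 of the other reading frames called. A lone library is then assumed to vary like the other strain.

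With upper quartile factors 31 were lower and the median was -0.65, with library totals the median was -0.57 and with 50 reads in 2 libraries it was -0.089. The 3 highest numbers per arm gave 8 higher and 11 lower of 37, with a median of -0.72. The 10 highest gave 47 and 44 of 228, with a median of -0.089, genes within 20 kb of an end gave 32 and 37 of 174, and genes without a near-identical copy gave 4 higher of 35. These limits admit other numbers of genes, and the cause was otherwise not tested. MAL32 turned to -0.023 with upper quartile factors and -0.091 with the authors' values, and ranged from -1.40 to 1.13 with 1 library left out. MAL12 ranged from -0.41 to 0.065 and YPR204W from -0.19 to 0.78, and YPR204W was at -0.049 with upper quartile factors.

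Deviations of same-numbered libraries from their strain means correlated at -0.066 over 6197 features. With 2 libraries per strain, this correlation cannot decide whether same-numbered libraries were paired. With the replicate block 20 subtelomeric genes were higher and 20 lower. Of the 200 genes 85 had enough reads to be tested, and what part depth and the assignment of shared reads have in this was not tested.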
